A study of Homo sapiens with 4 samples.

Results

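Polycomb repressive complex 2 (PRC2) was described here through the transcripts of 10 of its subunits: the catalytic subunits EZH2 and EZH1, the core subunits EED, SUZ12, RBBP4 and RBBP7, and the accessory subunits MTF2, PHF1, PHF19 and JARID2. Members were the transcript clusters of the deposited table whose gene symbol equals one of these names, and for a symbol with several clusters the brightest by its mean was used. All 10 were found among the 25847 genes compared. The RNA came from Hut78, an established human T-cell line from cutaneous T-cell lymphoma. In the ribavirin group (2 arrays) the cells had been exposed to ribavirin at 50 µM for 120 h, and in the control group (2 arrays) they had received no drug, for a time the labels do not give. Total RNA was amplified with a kit made for degraded tissue and hybridised to Human Transcriptome Arrays 2.0. All cells were of this 1 line and were grown in RPMI medium with fetal bovine serum. Ribavirin is a guanosine analogue given as an antiviral drug, which blocks guanine nucleotide synthesis and has been studied in tumour cells as an agent against eIF4E and EZH2. The study asked what the drug does to the growth and the transcripts of lymphoma cells.

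PRC2 places methyl groups on lysine 27 of histone H3, the mark of Polycomb repression. The catalytic subunit is EZH2 or its paralogue EZH1. EZH2 is the more active methyltransferase and is typical of dividing cells, while EZH1 has weaker activity and is also found in resting cells. EED binds the methyl mark and stimulates the enzyme, SUZ12 holds the complex together, and RBBP4 and RBBP7 are histone-binding proteins that also serve other chromatin complexes. The accessory subunits define 2 forms of the complex, PRC2.1 with one of MTF2, PHF1 and PHF19, and PRC2.2 with JARID2 and AEBP2. In activated T cells and in many lymphomas EZH2 is highly expressed.

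The stretches just upstream of the transcription starts of 4 members are shown because these are the ones whose levels moved most, 2 upward (EZH2, MTF2) and 2 downward (EZH1, PHF19). Each is the 250 bases before an annotated start, 5′ to 3′ on the gene's strand, from RefSeq (GRCh38.p14). EZH2 and PHF19 have several starts in that table, and the one farthest upstream is shown. The EZH2 stretch is chr7:148884292-148884541 (minus strand), the EZH1 stretch chr17:42745041-42745290 (minus strand), the MTF2 stretch chr1:93079033-93079282 (plus strand) and the PHF19 stretch chr9:120877189-120877438 (minus strand). Capitals mark matches on either strand to 3 motifs: the E2F motif (TTTCCCGC, TTTCGCGC, TTTGCCGC or TTTGGCGC), the CCAAT box (CCAAT) and the CHR element of cell cycle genes (TTTGAA or TTCGAA).
EZH2: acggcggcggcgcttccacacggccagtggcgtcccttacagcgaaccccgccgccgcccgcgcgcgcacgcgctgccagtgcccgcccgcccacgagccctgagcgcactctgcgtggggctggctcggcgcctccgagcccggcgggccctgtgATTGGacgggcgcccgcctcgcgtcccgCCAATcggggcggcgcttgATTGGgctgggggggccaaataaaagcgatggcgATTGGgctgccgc
EZH1: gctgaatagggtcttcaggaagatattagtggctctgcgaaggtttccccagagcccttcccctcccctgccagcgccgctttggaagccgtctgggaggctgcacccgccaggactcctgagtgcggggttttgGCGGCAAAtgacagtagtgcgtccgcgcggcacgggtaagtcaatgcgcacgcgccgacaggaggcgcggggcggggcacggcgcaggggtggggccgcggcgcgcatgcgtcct
MTF2: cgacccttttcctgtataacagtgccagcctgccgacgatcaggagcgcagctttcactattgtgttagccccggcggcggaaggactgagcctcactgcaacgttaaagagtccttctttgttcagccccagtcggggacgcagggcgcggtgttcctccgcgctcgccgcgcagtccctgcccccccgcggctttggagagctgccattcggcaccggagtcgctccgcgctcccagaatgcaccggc
PHF19: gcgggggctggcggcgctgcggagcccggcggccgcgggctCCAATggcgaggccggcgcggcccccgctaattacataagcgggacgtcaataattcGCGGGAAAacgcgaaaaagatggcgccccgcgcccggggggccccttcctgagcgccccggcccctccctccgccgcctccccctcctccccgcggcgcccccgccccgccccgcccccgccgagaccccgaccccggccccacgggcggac

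The EZH2 stretch held 4 CCAAT boxes, at 94, 66, 47 and 13 bases before the start, and no match to the other motifs, whereas the stretch before the other EZH2 start in the table held none of the 3 motifs. Of all 35116 RefSeq promoter windows of this length, 32.0% held at least 1 CCAAT box and 0.874% held 4 or more. The cut-off of 4 equals the count in the EZH2 stretch, the highest among the members, so that share is no test of it. The EZH1 stretch held 1 E2F match 115 bases before the start and no CCAAT box. The PHF19 stretch held both, an E2F match at 152 bases and a CCAAT box at 209 bases. The stretch before the other PHF19 start held a CCAAT box at 9 bases and no E2F match. The MTF2 stretch held none of the 3 motifs, so EZH2 and MTF2, which moved alike, shared no match. Over the 15 windows of the 10 members, an E2F match stood in 3 (EZH1, SUZ12 and PHF19), against 2.79% of all windows. A CCAAT box stood in 10, from 7 genes, against 32.0%, and a CHR match in 1 (SUZ12), against 14.3%. The RBBP4 windows overlap and share a CCAAT box, so the windows are not independent. Windows were not matched for GC content (51.2% to 79.6% in members, median 58% over all windows). A match is a description of these letters, and whether any factor binds there was not measured.

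The values are log2 summaries, so a difference of 1 is a factor of 2, and they were compared within a gene and not between genes. The top of the background range, the brightest of 23 background probe sets by its group mean, was 4.95 in ribavirin and 5.20 in control arrays. Gene medians were 4.20 and 4.21 in ribavirin arrays and 4.24 and 4.30 in control arrays, and replicate arrays correlated at Pearson r = 0.998 across genes in either group. Of 11 T-cell markers measured, 9 lay above background in control cells, among them CD3D, CD3E, CD3G and LCK, while CD2 and CD28 did not. CD4 was 4.42 and 4.67 in ribavirin arrays, inside that range, against 5.59 and 5.53 in control arrays. Of those 11 markers 7 fell and 0 rose, with a median log2 change of -0.52, where 5.88% of all genes and 11.8% of those above background fell. For this share and those like it below, genes were kept by their control mean alone. That leaves out genes bright only with ribavirin and tilts the counts toward falls. The summed linear signal of the 11 T-cell markers was 13511 and 13248 in ribavirin arrays and 42320 and 39730 in control arrays. Its largest term was TCF7, a T-cell transcription factor, at 12.62 and 12.58 with ribavirin and 14.93 and 14.81 in control. Of 8 B-cell markers 2 fell and 0 rose, with a median of -0.16 and with sums, made up mostly of CD79A, of 1307 and 1192 in ribavirin arrays and 2959 and 2629 in control arrays. CD79A, a B-cell receptor component, was bright in both groups (9.89 and 9.67 with ribavirin, 11.26 and 11.09 in control), whereas MS4A1, PAX5 and CR2 lay in the background range. Without control replicate 1, and without control replicate 2, 1 T-cell marker and 0 B-cell markers fell. Without ribavirin replicate 1 these counts were 4 and 1, and without ribavirin replicate 2 they were 4 and 2. Of 10 myeloid, 6 NK-cell and 9 fibroblast and endothelial markers, 9, 6 and 8 lay in the background range. The part of these shifts in the results below was not tested, and in bulk RNA fewer cells of a type and less RNA per cell cannot be told apart.

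EZH2 rose and EZH1 fell. The EZH2 level was 9.90 and 9.67 in the ribavirin arrays, against 8.98 and 8.98 in the control arrays. Both ribavirin arrays lay well above both controls, and the controls were almost equal. The group means were 9.79 ± 0.16 with ribavirin and 8.98 ± 0.0056 in control (SD, n = 2 each), which is 1.75-fold, or 0.81 on the log2 scale (SE 0.10, 95% interval 0.56 to 1.06, limma adjusted p = 0.00839 over all genes). Transcript cluster TC07001993.hg.1 stood for it.

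The other catalytic subunit moved the opposite way. The EZH1 level was 8.09 and 8.05 in the ribavirin arrays, against 8.72 and 8.63 in the control arrays, with no overlap. Mean levels were 8.07 ± 0.02 and 8.67 ± 0.07 (SD, n = 2 each), which is 0.658 times the control level, or -0.60 on the log2 scale (SE 0.07, 95% interval -0.79 to -0.41, limma adjusted p = 0.00888; cluster TC17001540.hg.1). Of the 25847 genes 2.40% had a change as low as that of EZH1 or lower, while 97.3% had a change no higher than that of EZH2.

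None of the 4 core subunits passed the test. SUZ12, the scaffold, was 9.23 and 8.97 in ribavirin arrays and 8.76 and 8.86 in control arrays, so the groups did not overlap, but the gap between them was smaller than the spread of the ribavirin arrays. Its log2 change was 0.30 (95% interval 0.02 to 0.58), with an unadjusted limma p of 0.0422 and an adjusted p = 0.152. The SUZ12 signal is uncertain to the extent that probes are shared with its near-copy SUZ12P1, which was 10.29 and 10.13 with ribavirin and 10.20 and 10.18 in control (change 0.02). EED, the reader of the mark, was 6.43 and 6.48 with ribavirin and 6.44 and 6.26 in control, overlapping groups with a change of 0.10 (95% interval -0.12 to 0.33, adjusted p = 0.495). RBBP4 was 13.54 and 13.51 against 13.62 and 13.76 (ribavirin, then control), a change of -0.16 (95% interval -0.37 to 0.05, adjusted p = 0.271). RBBP7 was 9.73 and 9.62 with ribavirin and 9.76 and 9.75 in control, a change of -0.08 (95% interval -0.28 to 0.12, adjusted p = 0.538). For RBBP4 and RBBP7 both ribavirin arrays lay slightly below both controls.

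The accessory subunits of PRC2.1 differed in direction. MTF2, which brings the complex to unmethylated CpG islands, was 8.84 and 8.44 in the ribavirin arrays, against 7.85 and 7.96 in the control arrays. The groups were apart, and the 2 ribavirin arrays differed from each other by more than the controls did. The means were 8.64 ± 0.28 with ribavirin and 7.91 ± 0.08 in control (SD, n = 2 each), which is 1.66-fold, or 0.73 on the log2 scale (SE 0.15, 95% interval 0.36 to 1.10, limma adjusted p = 0.0307). PHF19, its relative that binds lysine 36 methylation on histone H3, fell. Its level was 9.98 and 10.00 in the ribavirin arrays and 10.52 and 10.30 in the control arrays. The ribavirin arrays were nearly equal and lay below both controls. Its log2 change was -0.42 (SE 0.10, 95% interval -0.67 to -0.18), or 0.745 times the control level, close to the threshold (limma adjusted p = 0.0451).

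PHF1, the remaining PRC2.1 accessory subunit, passed in the cluster that the rule picked, but not in the cluster of its coding transcript. The picked cluster (TC06002739.hg.1) is annotated in the table as a noncoding transcript. It was 5.62 and 5.69 in the ribavirin arrays, against 5.34 and 5.24 in the control arrays, which is 1.29-fold, or 0.36 on the log2 scale (SE 0.08, limma adjusted p = 0.0383). These levels are barely above background, and in ribavirin replicate 1 the brightest background probe set (5.65) exceeded the cluster. The coding transcript's cluster (TC06000423.hg.1) was 5.28 and 5.28 with ribavirin and 5.15 and 5.25 in control, a change of 0.08 (adjusted p = 0.546 with this cluster in its place). The 2 further PHF1 clusters, on alternative haplotypes, were 5.35 and 5.34 against 5.20 and 5.32, and 4.20 and 4.15 against 4.19 and 4.26 (ribavirin, then control). With all PHF1 clusters averaged the change was 0.12 (adjusted p = 0.325). The other 9 members had 1 cluster each.

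JARID2, which ties PRC2.2 to its sites, was 11.41 and 11.37 in ribavirin arrays and 11.43 and 11.48 in control arrays. Its change was -0.06 (95% interval -0.24 to 0.12, adjusted p = 0.621). With the arrays centred on their medians its sign turned (0.0047).

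**Figure D1:**
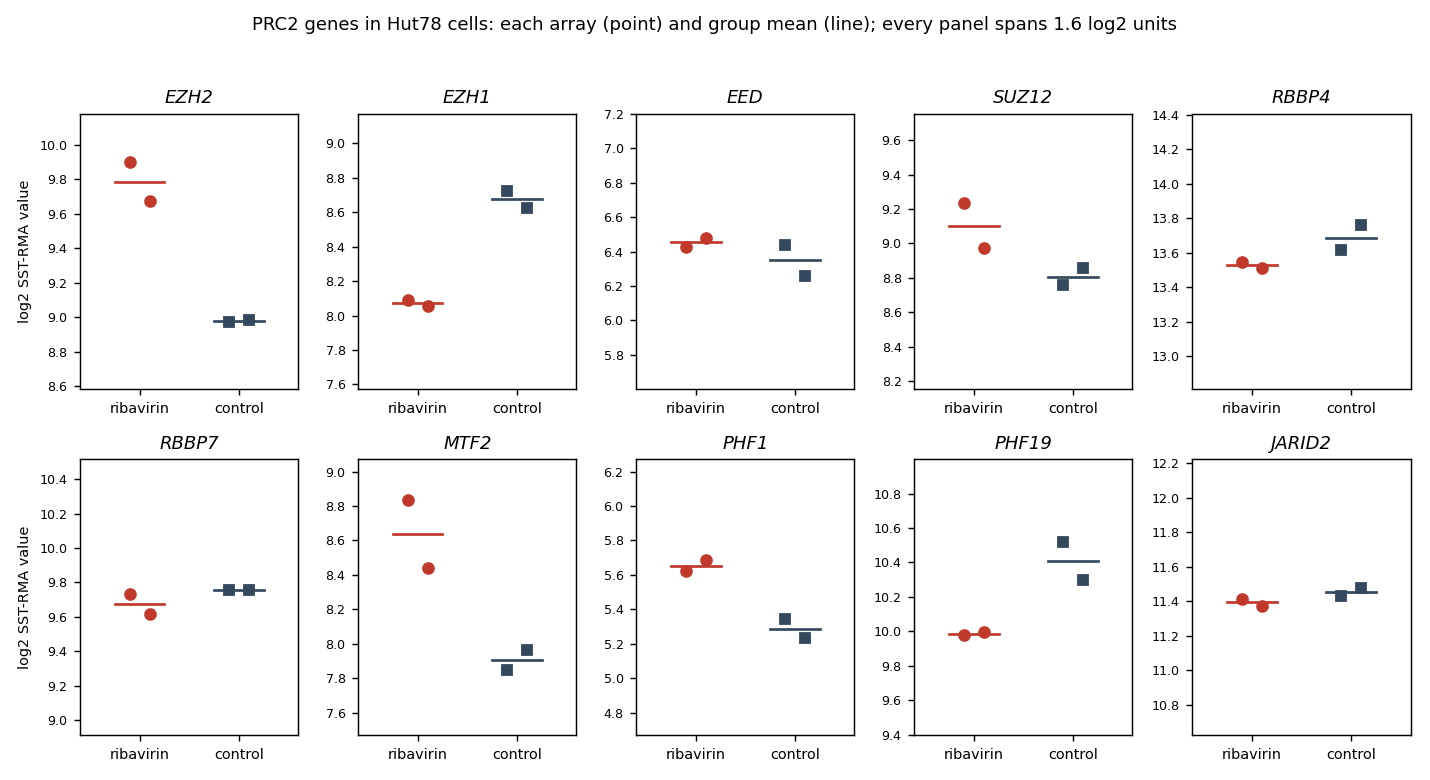
Log2 SST-RMA value (vertical axis) of each PRC2 gene in the 2 ribavirin arrays (red circles) and the 2 control arrays (dark squares), with group means as lines and panels of equal height. EZH2 and MTF2 are higher and EZH1 and PHF19 lower with ribavirin without overlap, whereas the EED groups overlap.

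Of the 10 members, 3 rose (EZH2, MTF2 and PHF1), 2 fell (EZH1 and PHF19) and 5 did not pass. Over all 25847 genes 15.2% passed, 9.34% upward and 5.88% downward. All 10 members lay above background in control cells, where calls were more frequent: of the 9726 genes with a control mean above background 33.0% passed, 21.2% upward and 11.8% downward. The shares of members that rose (3 of 10) and fell (2 of 10) lie near those of genes above background. The latter shares are tilted toward falls by the filter on control means. In 9 members both ribavirin arrays lay on one side of both controls, 4 above and 5 below, against 59.9% of all genes. The share among genes above background was not counted. Some gaps were narrow: the higher ribavirin array and the lower control were 9.73 and 9.75 for RBBP7, and 11.41 and 11.43 for JARID2. The median log2 change was 0.02 over the members and -0.05 over all genes. With quantile normalization the member median was -0.09, 2 rose and 2 fell, and PHF1 did not pass (adjusted p = 0.0557). Over all genes that setting gave 1939 rises and 1996 falls, against 2413 and 1521 in the values as deposited. With arrays centred on their medians 3 members rose and 1 fell, the PHF19 call being lost (-0.36, adjusted p = 0.103), and over all genes 2899 rose and 1034 fell.

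**Figure D2:**
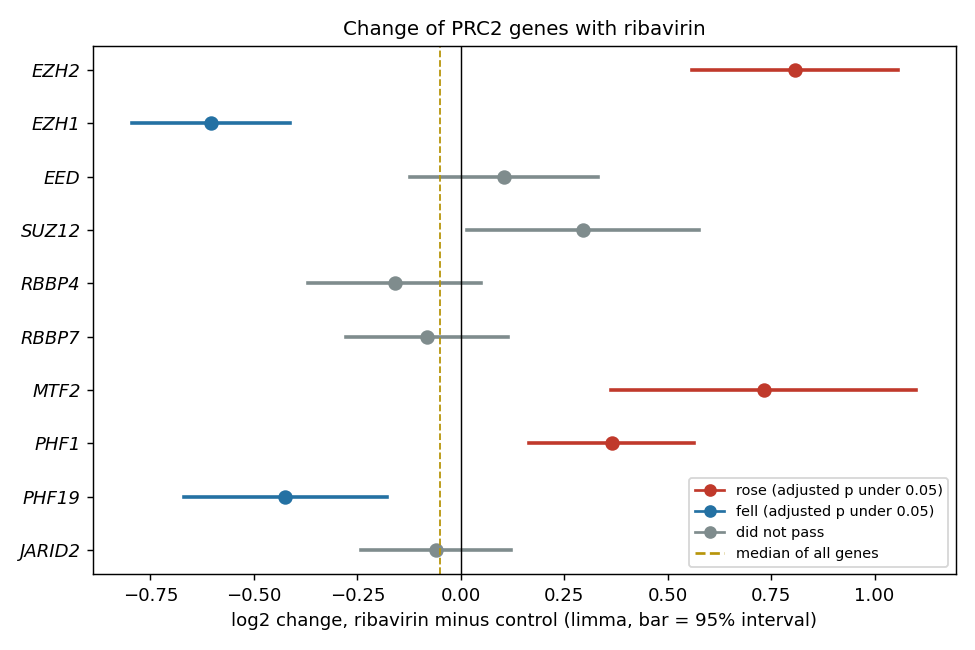
Log2 change of each PRC2 gene, ribavirin minus control (horizontal axis), with its 95% interval from limma. Red marks genes that rose, blue genes that fell and grey genes that did not pass. The dashed line is the median of all genes (-0.05). EZH2 (0.81) and EZH1 (-0.60) lie at opposite ends.

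These calls rest on 2 arrays a group. Without control replicate 1, and without control replicate 2, no member passed, while over all genes 26 and 27 genes did. The EZH2 adjusted p was then 0.0869 and 0.0837, with changes of 0.80 and 0.81. Without ribavirin replicate 1 EZH2 was the 1 member that rose, and without ribavirin replicate 2 EZH2 and MTF2 rose. EZH1, PHF1 and PHF19 passed in none of these 4 fits, with adjusted p of 0.0511 to 0.0771 for EZH1, 0.109 to 0.163 for PHF1 and 0.0753 to 0.178 for PHF19. Signs stayed as reported for these 5 genes in all 4, which was fixed in advance because their groups did not overlap.

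EZH2 was then set against the other members by the difference between 2 genes within each array, which removes any offset of a whole array. EZH2 minus EZH1 was 1.81 and 1.62 in the ribavirin arrays, against 0.25 and 0.36 in the control arrays. The balance of the 2 catalytic transcripts thus differed by 1.41 on the log2 scale (SE 0.11), a factor of 2.66, and the groups did not overlap. SEs of contrasts come only from the spread of the difference within each group. Those of single genes come from limma, which borrows spread from all genes, so the sizes of these SEs do not compare. The two-sided exact permutation p was 0.333, which is the smallest that this test can give with 2 arrays against 2, so it cannot reach 0.05 whatever the size of the difference. Against the mean of the accessory subunits MTF2, PHF1, PHF19 and JARID2, EZH2 was 0.94 and 0.80 with ribavirin and 0.19 and 0.24 in control, a difference of changes of 0.65 (SE 0.07, exact permutation p = 0.333). It was 0.73 with the PHF1 coding cluster in that mean.

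The accessory mean hides unequal members. The EZH2 change exceeded that of PHF19 by 1.23 (SE 0.17), that of JARID2 by 0.87 (SE 0.10) and that of PHF1 by 0.44 (SE 0.16). Against MTF2 the difference of changes was 0.08 (SE 0.10), and the groups overlapped: EZH2 minus MTF2 was 1.07 and 1.23 with ribavirin and 1.13 and 1.02 in control (exact permutation p = 0.667). Within PRC2.1, the MTF2 change exceeded that of PHF19 by 1.16 (SE 0.27). Against the core subunits the EZH2 change was larger by 0.51 for SUZ12 (SE 0.05), 0.70 for EED (SE 0.17), 0.89 for RBBP7 (SE 0.06) and 0.97 for RBBP4 (SE 0.12). Apart from EZH2 minus MTF2, the groups did not overlap in these 11 contrasts. The exact permutation p was then 0.333 (0.367 adjusted over the 11). All but MTF2 minus PHF19 used the same EZH2 values, whose groups were apart, so they are not separate results. Of single genes 59.9% were free of overlap in the same arrays, and the share among differences between genes was not counted. Leaving out 1 array at a time gave 1.31 to 1.51 for EZH2 minus EZH1 and 0.58 to 0.73 for EZH2 minus the accessory mean.

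**Figure D3:**
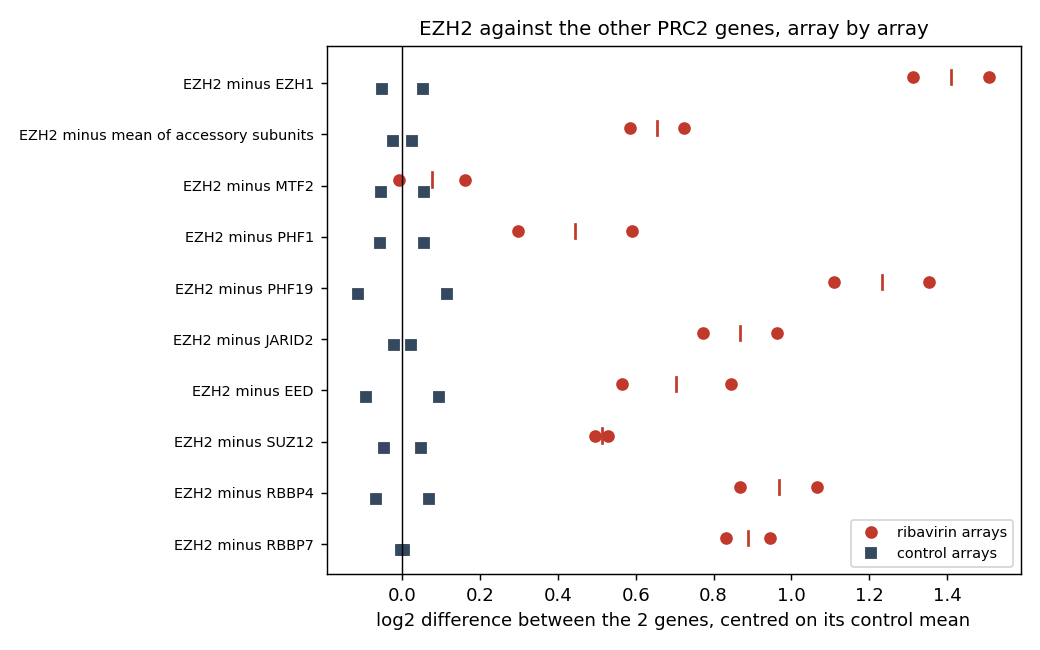
Log2 difference between EZH2 and each other PRC2 gene, or the accessory mean, in every array, centred on its control mean (horizontal axis), with ribavirin arrays as red circles, their mean as a short line and control arrays as dark squares. The ribavirin arrays lie furthest out for EZH1 (mean 1.41) and overlap the controls for MTF2 (mean 0.08), where ribavirin replicate 1 lies between them and ribavirin replicate 2 above both.

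Among 9793 other genes with a mean above background, those closest to EZH2 in profile over the 4 arrays (Euclidean distance after centring on the control mean) were GOLIM4 (0.0152), ABHD3 (0.0249) and ARL6IP1 (0.0306), each with a log2 change of 0.82. Closest to EZH1 were BMP1 (0.0215), TECR (0.0244) and the histone demethylase KDM1A (0.0266), with changes of -0.60, -0.60 and -0.62.

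Of 5 further PRC2 subunits and inhibitors 1 passed. LCOR, whose locus encodes a PRC2.1 subunit, rose by 0.49 (limma adjusted p = 0.0181), with 7.12 and 7.13 in ribavirin arrays and 6.57 and 6.70 in control arrays. EPOP (C17orf96 in the table), another PRC2.1 subunit, had the largest difference but also the largest spread, with 4.96 and 5.06 with ribavirin and 6.31 and 5.48 in control (change -0.88, adjusted p = 0.0950). AEBP2, the partner of JARID2 in PRC2.2, had a change of 0.04 (adjusted p = 0.775). The PRC2 inhibitor EZHIP (CXorf67) and LCORL lay in the background range in control cells. With any 1 of the 4 arrays left out, none of these 5 passed.

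PRC1, the complex that ubiquitinates histone H2A and can bind the PRC2 mark, changed in both directions. Of its 27 subunit genes 17 did not pass, 6 rose and 4 fell (9.34% and 5.88% of all genes, 21.2% and 11.8% of those above background). RYBP, a subunit of the noncanonical forms, was 8.36 and 7.89 in ribavirin arrays and 6.70 and 6.25 in control arrays, a rise of 1.65 (SE 0.21, limma adjusted p = 0.00948). PCGF2, a subunit of the complex, fell by 0.95 and BCORL1, a subunit of a noncanonical form, fell by 0.55. PCGF2 ended in the background range with ribavirin (4.57 and 4.46, against 5.48 and 5.44 in control). The median change was -0.03, next to -0.05 for all genes. With quantile normalization 3 rose and 7 fell. Without ribavirin replicate 1 the counts were 2 and 1, without ribavirin replicate 2 they were 3 and 1, and without either control replicate none passed.

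Enzymes and complexes that oppose Polycomb were read against the 15.2% of all genes, and 33.0% of those above background, that passed. Of the 2 demethylases of lysine 27, KDM6B was 5.93 and 5.96 with ribavirin and 5.57 and 5.56 in control, a rise of 0.39 (limma adjusted p = 0.0231), and KDM6A had a change of 0.06 (adjusted p = 0.641). Of 10 genes of the H2A deubiquitinase complex 1 fell, the catalytic subunit BAP1 by 0.60 (adjusted p = 0.0221). Of 11 methyltransferases of lysines 4 and 36, 1 rose, NSD3 (WHSC1L1) by 0.60 (adjusted p = 0.0143), and with quantile normalization 1 rose and 4 fell. In the SWI/SNF remodelling complexes 3 of 19 rose and 3 fell, with SS18 (1.05) and PBRM1 (0.63) up and PHF10 (-0.64) and ARID1A (-0.45) down, and the split was 3 and 5 with quantile normalization and 4 and 2 with centred arrays. Without ribavirin replicate 1 the 1 call in these lists was a SWI/SNF rise, without ribavirin replicate 2 there were 3 SWI/SNF rises and the NSD3 rise, and without either control replicate there were none.

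Since EZH2 is typical of dividing cells, proliferation genes and the E2F and RB family were read beside it. Among 28 proliferation genes, 9 passed upward and 2 downward, with a median of 0.17, against -0.05 for all genes. All 28 lay above background, where 21.2% of genes rose and 11.8% fell. The ribonucleotide reductase subunit RRM2 rose by 0.81, the mitotic kinase CDK1 by 0.74, the proliferation antigen MKI67 by 0.72 and the thymidylate synthase TYMS by 0.79, changes of about the size of that of EZH2. The 2 that fell were MCM2 (-0.56) and CHAF1B (-0.53). MKI67 was 14.88 and 14.97 with ribavirin and 14.15 and 14.25 in control. Of 19 E2F and RB family genes 5 rose and 4 fell (median 0.02), and 18 of the 19 lay above background, with the same shares for comparison. The pocket protein RBL1 rose by 0.63, the repressor E2F7 by 0.81, the MuvB subunit LIN54 by 0.80 and MYC, listed with them, by 0.48. The 4 that fell were E2F4 (-0.58), TFDP2 (-0.45), E2F2 (-0.36) and E2F5 (-0.33). With quantile normalization 8 proliferation genes rose and 4 fell (median 0.05), and 4 E2F and RB genes rose and 4 fell. With centred arrays 5 E2F and RB genes rose and 0 fell. Without ribavirin replicate 1 the counts were 4 and 0 for proliferation and 2 and 0 for E2F and RB, without ribavirin replicate 2 they were 8 and 0 and 3 and 0, and without either control replicate none passed. The part of cell division in the EZH2 level was not tested.

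Classical Polycomb targets were mostly dark in both groups. Of the 37 measured genes of the 4 HOX clusters, whose silencing defines the Polycomb system, 26 lay in the background range in control cells. In all, 29 did not pass, 7 fell and 1 rose, with a median of -0.12. HOXA7 was 7.07 and 6.93 in ribavirin arrays, against 8.36 and 8.25 in control arrays, a fall of 1.30 on the log2 scale (SE 0.09, limma adjusted p = 0.00276). HOXA11 fell by 0.72 and HOXC6 by 0.54, while HOXB9 rose by 0.69 (8.64 and 8.52 with ribavirin, 7.94 and 7.84 in control). Over all genes 5.88% fell and 9.34% rose. Of the 11 HOX genes above background 5 fell and 1 rose, where 11.8% of all genes above background fell and 21.2% rose. The HOX counts and these shares come after the filter on control means, which favours falls, so they are a description only. The fall and rise counts were 1 and 0 without ribavirin replicate 1, 3 and 1 without ribavirin replicate 2, and 0 and 0 without either control replicate.

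Of 49 developmental regulators that PRC2 holds in stem cells, 46 lay in the background range in control cells. GATA6 (0.69) and EN2 (0.48) rose, both within the background range in either group, 0 fell, and the median was -0.08. Without ribavirin replicate 1, and without ribavirin replicate 2, 1 of these passed, and without either control replicate none did. The cell cycle inhibitor genes CDKN2A, CDKN2B, CDKN1C and CDKN1A, which PRC2 can repress, all lay in the background range in control cells and none passed. CDKN2A was 3.67 and 3.62 with ribavirin and 3.69 and 3.70 in control. Of 7 measured precursors of microRNAs reported to target EZH2, 6 lay in the background range in control cells and 1 passed, MIR26B, which fell by 0.45 (5.08 and 4.93 with ribavirin, 5.46 and 5.45 in control) and did not pass with any 1 of the 4 arrays left out. Precursor probes do not measure the mature microRNA.

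**Figure D4:**
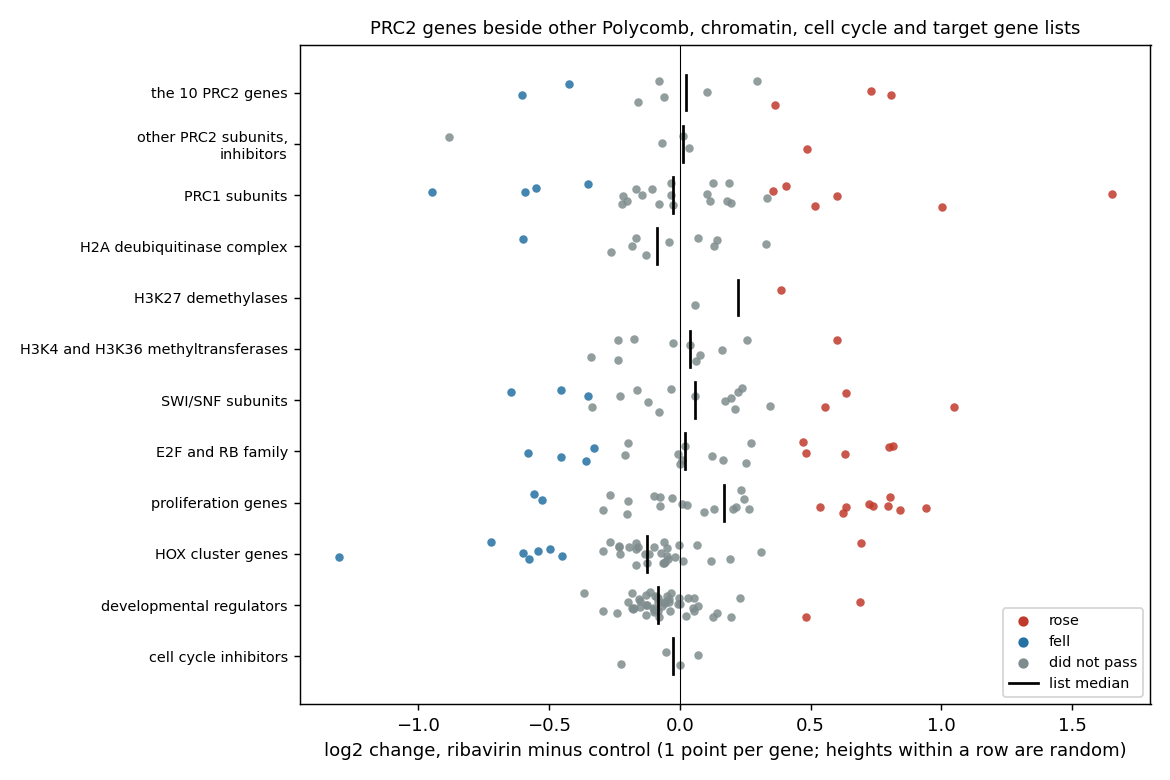
Log2 change, ribavirin minus control (horizontal axis), of every measured gene in the 10 PRC2 genes and in 11 related lists, coloured by call, with the list median as a black line. The PRC2 genes spread to both sides of their median (0.02), proliferation genes lie mainly to the right (median 0.17) and HOX genes to the left (-0.12).

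**Figure D5:**
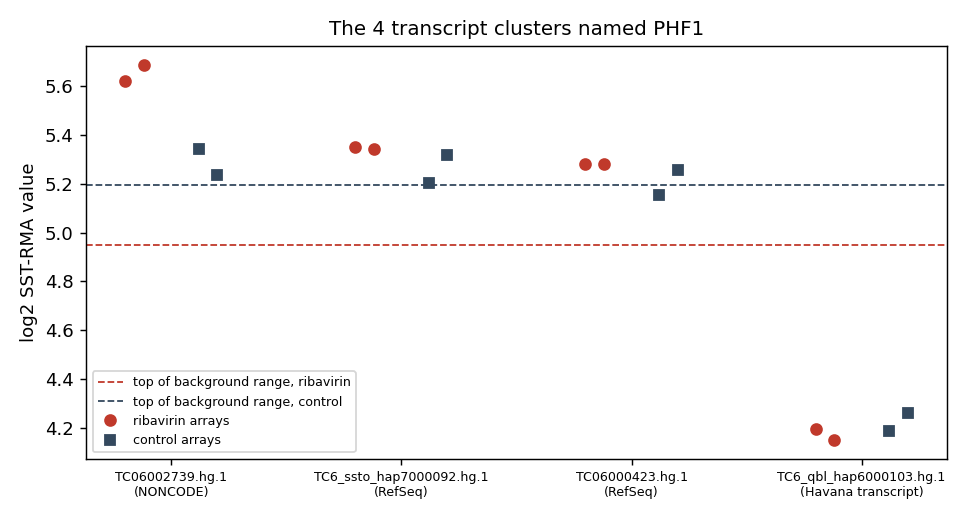
Log2 SST-RMA values (vertical axis) of the 4 transcript clusters named PHF1 in ribavirin (red circles) and control arrays (dark squares), with the top of the background range of each group as dashed lines. The cluster used, at the left (source NONCODE), separates the groups. The coding transcript's cluster lies between 5.15 and 5.28, with both ribavirin arrays (5.28 and 5.28) only slightly above the higher control (5.25).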

How the data were processed

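RNA of 2 ribavirin and 2 control samples was hybridised to Affymetrix Human Transcriptome Arrays. The authors deposited log2 values per probe set, from SST-RMA by the table's own title. Expression Console and RMA stand in the submitters' processing notes, and the Exon Array Computational Tool in the design text. For versions, filters and genome build: not given in the sources used here. Such summaries can compress changes near background. The second deposited table held the same values (largest difference 0 over 70523 probe sets).

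Of 67528 transcript clusters, 33444 with 1 distinct symbol were kept, giving 25847 genes. The groups were tested with limma 3.58.1 under R 4.3.3 (lmFit, eBayes, no covariate, 2 residual degrees of freedom). Tests were two-sided, and Benjamini-Hochberg adjustment ran over all genes with a threshold of 0.05. The steps were tested on simulated data. Separate cultures are named in no label, so p-values reflect the spread of these samples alone, possibly technical, and the number of arrays limits the precision. Contrasts between genes used exact permutation. Same-numbered arrays were not treated as pairs (correlation of deviations 0.05). Members and lists were chosen with earlier results of these data known. Named were all members, list members with the smallest p (up to 4 past the threshold, or all of short lists) and the 3 nearest profiles to EZH2 and EZH1. All falls of the proliferation list and of the E2F and RB list were named as well. Some genes covered by these rules are not reported here. The alternative settings were robust moderation, an intensity trend, quantile normalization, median centring, dim genes left out, averaged clusters, a replicate block by array number, adjusted p thresholds at 0.01 or 0.1, and omission of single arrays.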

Additional observations from a re-analysis of the deposited data

How the results depend on the processing

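The changes of EZH2, EZH1, MTF2, PHF1 and PHF19 kept their sign in all 14 alternatives (9 other settings, 4 fits that each leave out 1 array, and the PHF1 coding cluster, which was chosen after seeing the data). Most of these could not turn a sign. The trend, robust, dim-gene, block and threshold settings leave the change itself as it is. Leaving out 1 array cannot turn a gene whose groups do not overlap, which holds for these 5. Only quantile normalization, centring and, for PHF1, the choice of cluster could have done so. With arrays centred on their medians 1 member fell and JARID2 turned (0.0047). With the array number as a replicate block 2 members rose and 1 fell, PHF1 (adjusted p = 0.0687) and PHF19 (0.0599) being lost. At an adjusted p under 0.01, 1 member rose, 1 fell, and 894 genes rose and 420 fell over all genes, and at 0.1 the falls over all genes were 2449. Leaving out 1 array at a time gave 0 to 2 member rises and 0 to 0 falls, and 22 to 1430 rises and 4 to 571 falls over all genes. The trend, robust moderation and dim-gene settings kept all 5 member calls. Of 51 genes called in related lists, 0 changed sign with quantile normalization, centring or 1 array left out. These genes were picked by their calls in the same data. Omission of 1 array cannot turn the sign of a gene whose groups do not overlap, so that part is no check of them. A lone array left in a group takes its spread from the other. Signal over background limits PHF1, most HOX genes and the other Polycomb targets.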
